A study of Mus musculus with 4 samples.

Results

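Foxp3, Ccdc22 and Gm36995 are 3 genes whose exons overlap on mouse chromosome X, and they are described here in 4 RNA-seq libraries. They are 3 of the 50600 genes counted. They were chosen by their exon overlap and by their fragment counts in the 4 libraries, so those counts are given as a description, with no test. The libraries are replicates 1 to 4 of 1 group, mouse primary cells (strain C57BL/6NJ) labelled as T-helper 2 cells (CD4 T cells that make interleukins for responses to parasites and allergens). The labels carry 1 donor identifier, give sex as not collected and age as unknown, and name the assay total RNA-seq while linking a library protocol for poly(A)+ RNA and another for differentiating CD4 T cells. The file headers name the libraries as hour 0 of a Th1 and Th2 time course. There is no second condition and no treatment to compare. Nothing states whether the libraries came from separate animals, so the spread between them may be technical, biological or both.

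Foxp3 encodes the forkhead transcription factor that defines regulatory T cells (Tregs), the CD4 T cells that restrain immune responses, and mice without it die of autoimmunity. Ccdc22 encodes a coiled-coil subunit of the Commander complex, which with the retriever and WASH complexes returns membrane proteins from endosomes to the cell surface, and it is used in most cell types. The genes lie tail to tail on opposite strands, so the end of each transcript is complementary to part of the other. Gm36995 is annotated by GENCODE as a readthrough transcript that joins exons of Ccdc22 to exons of Ppp1r3f, on the same strand as both.

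A count here is the number of read pairs that the authors assigned to a gene's exons on its annotated strand. A pair whose exon belongs to more than 1 gene of that strand was given to none of them, since the counting command, per the file headers, holds no option to count it. Of 657 genes with no exon base of their own on their strand, 0 had a count. A base in no other gene's exon on the same strand is called assignable here. Counts per assignable base make no allowance for pairs that reach beyond an assignable stretch, so they are approximate where such stretches are short. The library kit is not given in the sources used here, so the strand of the RNA behind these pairs is not known. As counted, genes typed as antisense were 5.07% of genes and held 21.8% of the counts. Of 4068 protein-coding genes with an opposite-strand exon overlap and a count in the pair, 61.4% had fewer counts than the opposite gene. The authors' strand setting takes the first read as lying on the strand of the RNA, and whether that setting matches the library was not tested. If it does not match, a pair counted for a gene came from RNA of the opposite strand. Every level, rank and ratio given here is on the strand as counted.

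Foxp3 (ENSMUSG00000039521.12) lies on the plus strand of mm10 chromosome X from 7579676 to 7595243, with 3989 exon bases in 15 merged exons. Its coding sequence runs from 7586355 to 7593043, ends in the last exon, and has 0 bases in exons of Ccdc22. That last exon, 7592900 to 7595243, is 2344 bases long, most of it 3′ untranslated. It holds all 590 bases that Foxp3 shares with Ccdc22, which are 14.8% of the exon bases of Foxp3. A further 267 bases, the first 2 exons in full, are shared on the same strand with Flicr, a long noncoding RNA known in mouse Tregs to modulate Foxp3. These leave 3722 assignable bases, or 93.3%.

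Ccdc22 (ENSMUSG00000031143.4) lies on the minus strand from 7593809 to 7605517, with 3427 exon bases in 15 merged exons. The overlap with Foxp3 falls into 4 stretches of 359, 75, 60 and 96 bases, and 345 of the 1884 coding bases of Ccdc22 lie in the last exon of Foxp3. The overlap thus takes in the end of the Ccdc22 coding sequence but only untranslated sequence of Foxp3. The last 30 coding bases of each gene, stop codon in capitals, show this. They are shown because they mark where each reading frame ends, and the third line is the Ccdc22 stretch as it would be read on the strand of Foxp3, with the complement of its stop codon in capitals.
Foxp3 end of coding sequence, chrX:7593014-7593043, plus strand: cccaacaagtgctccaatccctgccctTGA
Ccdc22 end of coding sequence, chrX:7594054-7594083, minus strand: ggcctcttgggccgggtccgagaggccTAG
the same bases on the strand of Foxp3, chrX:7594054-7594083, plus strand: CTAggcctctcggacccggcccaagaggcc

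These sequences are from the GENCODE release 21 transcripts of each gene, on the same build. All 30 bases of the Ccdc22 stretch lie within the Foxp3 exon, against 0 bases of the Foxp3 stretch in exons of Ccdc22. The complement of the Ccdc22 coding end starts 1011 bases after the stop codon of Foxp3. The last base of Ccdc22 is 766 bases beyond that stop codon.

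Gm36995 (ENSMUSG00000103436.1) lies on the minus strand from 7558602 to 7605381, with 5727 exon bases in 17 merged exons. Of these, 2957 lie in exons of Ccdc22 and 2415 in exons of Ppp1r3f, a regulatory subunit of a glycogen-bound phosphatase. Only 355 bases, or 6.20%, are assignable, in 2 stretches of 258 and 97 bases that lie in introns of Ccdc22. For Ccdc22 the 2957 bases shared with Gm36995 are 86.3% of its exon bases and include every coding base, since 0 coding bases lie outside Gm36995. The 470 assignable bases of Ccdc22 are 217 bases of its 3′ untranslated end, 117 bases of an intron retained in 1 annotated transcript and 136 bases at its 5′ end. The stretch of 217 bases lies opposite the last exon of Foxp3, so 253 bases of Ccdc22 lie in no other gene's exons. An assignable share below the 13.7% of Ccdc22 was found for 0.763% of the 21764 protein-coding genes.

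**Figure D1:**
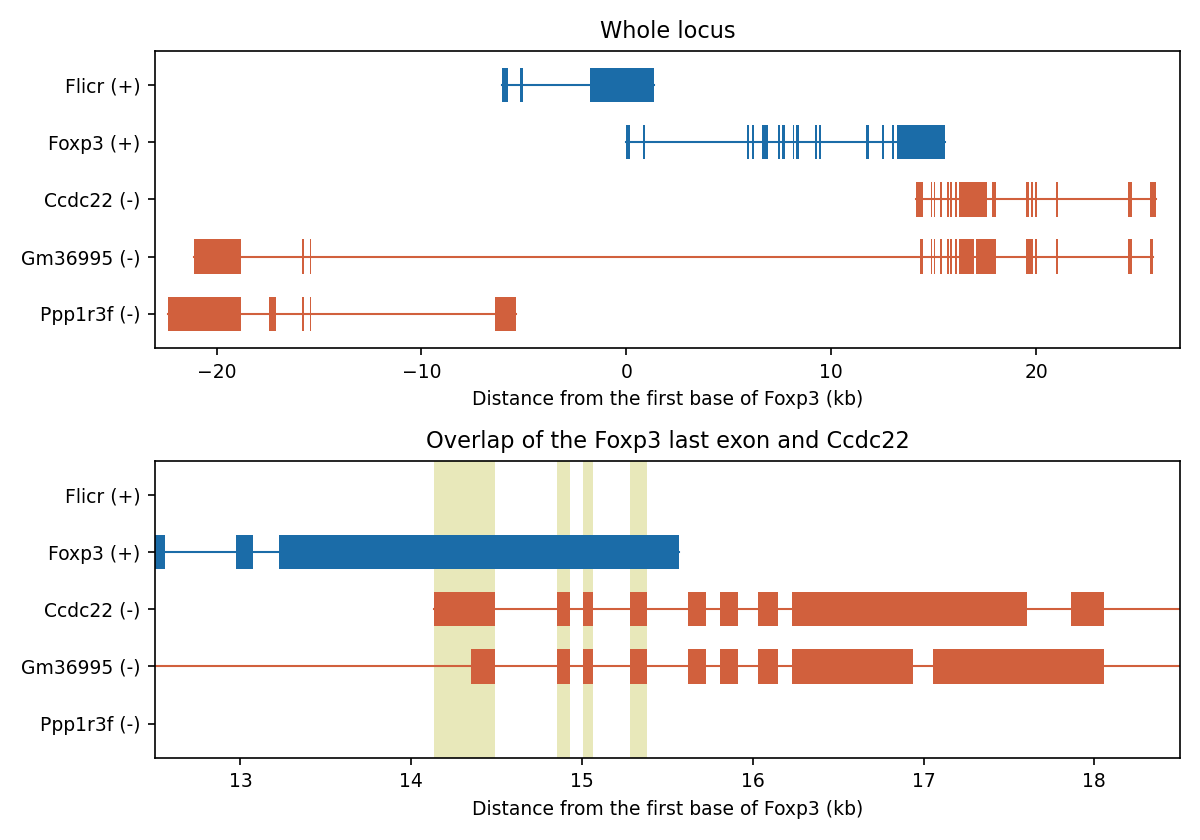
Merged exons (boxes) and introns (lines) of 5 genes by distance from the first base of Foxp3 in kb, plus strand in blue and minus strand in orange; the lower panel enlarges the last exon of Foxp3, with the 4 stretches shared with Ccdc22 shaded. Gm36995 repeats nearly all Ccdc22 exons, and the shading covers 590 bases at the far end of the Foxp3 exon.

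**Figure D2:**
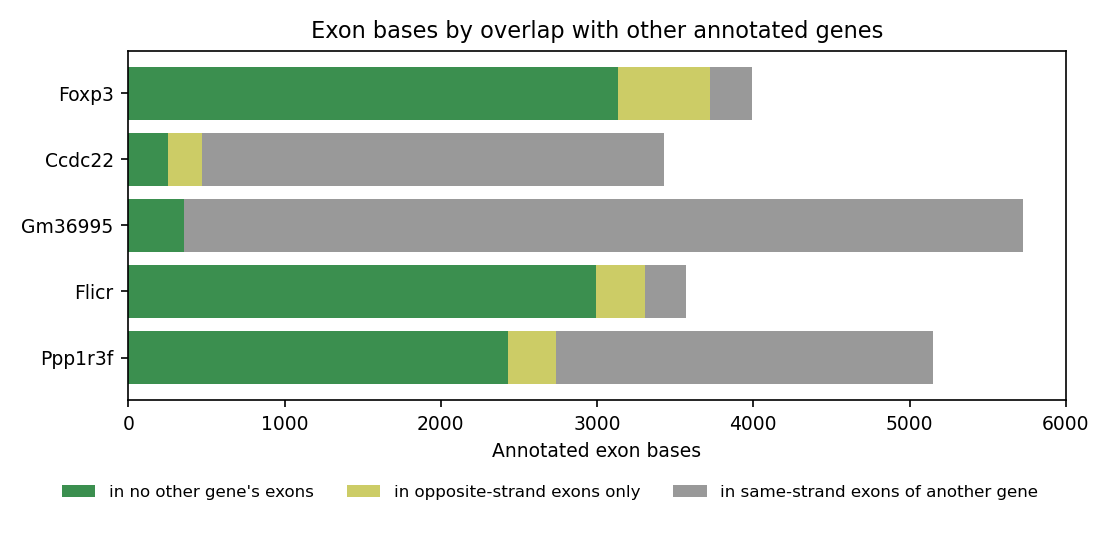
Annotated exon bases of each gene by overlap with other annotated genes: in no other gene's exons (green), in opposite-strand exons only (yellow) and in exons of another gene of the same strand (grey). Green makes up 3132 of 3989 bases for Foxp3, 253 of 3427 for Ccdc22 and 355 of 5727 for Gm36995.

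The libraries held 2131288, 2351916, 1923157 and 1452053 counts for replicates 1 to 4, so a count of 0 allows up to 1.28 to 2.07 CPM (counts per 1000000 counts of the library), taking 3 counts as the limit. Intervals and limits given here cover counting error only, since the counts are of reads without molecular identifiers. Genes with an opposite-strand exon overlap were 16.2% of genes and held 88.6% ± 1.06 of the counts (SD, n = 4). Genes typed as antisense were 5.07% of genes and held 21.8% ± 1.76. The T cell markers Cd3e and Cd4 had 34 to 97 and 108 to 243 counts, and the Th2 markers Gata3 and Il4 20 to 42 and 2 to 25, while Il5 and Il13 had none. Of 16 markers of other lineages 10 had no count, among them Tbx21 and Lyz2, as had 9709 of all 21764 protein-coding genes. The myeloid marker Csf1r had 555 to 771 counts, the B cell marker Cd79a 58 to 87 and the erythroid marker Alas2 25 to 60. Of these, Csf1r and Alas2 overlap opposite-strand exons. Cd8a, Cd8b1 and Itgam had 1, 9 and 10 counts in all. The markers' part in the results at Foxp3 was not tested. In bulk RNA, few cells with much RNA of a gene and many cells with little cannot be told apart.

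Foxp3 had 1127, 1144, 1065 and 768 counts in replicates 1 to 4. These were 529, 486, 554 and 529 CPM, with a mean of 524 ± 28.0 (SD, n = 4). All 4 libraries were close together, replicate 2 lowest. Per kb of exon and scaled to a sum of 1000000 in every library (TPM), Foxp3 had 197, 193, 205 and 201, with a mean of 199 ± 4.99. In TPM it ranked 754 of the 17006 genes with a count and 216 of the 12055 protein-coding ones. On chromosome X it was 12 of 505.

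Ccdc22 had 14, 18, 9 and 28 counts, or 6.57, 7.65, 4.68 and 19.3 CPM. The mean was 9.55 ± 6.61 CPM (SD, n = 4), and 6.30 ± 1.50 CPM without replicate 4. Replicate 4 was highest although it was the smallest library, and the other 3 lay together. In TPM the values were 2.84, 3.54, 2.01 and 8.52, ranking Ccdc22 6055 of 17006, or between the 52.4 and 75.3 percentile in single libraries. Foxp3 stayed between the 95.4 and 95.7 percentile.

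Gm36995 had 0 counts in all 4 libraries. With 355 assignable bases, the limit of 3 counts over the group is a loose one. With Gm36995 set at 3 counts, Ccdc22, at 69 counts in all, was 17.4-fold higher than Gm36995 per kb of assignable exon. Foxp3, at 4104 counts, was 130-fold higher on the same scale. A read pair can reach beyond such short stretches, which this scale does not allow for, so neither fold is a firm lower limit. The readthrough transcript was not detected in its 355 assignable bases on the strand as counted. Its other 5372 exon bases could not receive a count, so its absence is not shown.

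**Figure D3:**
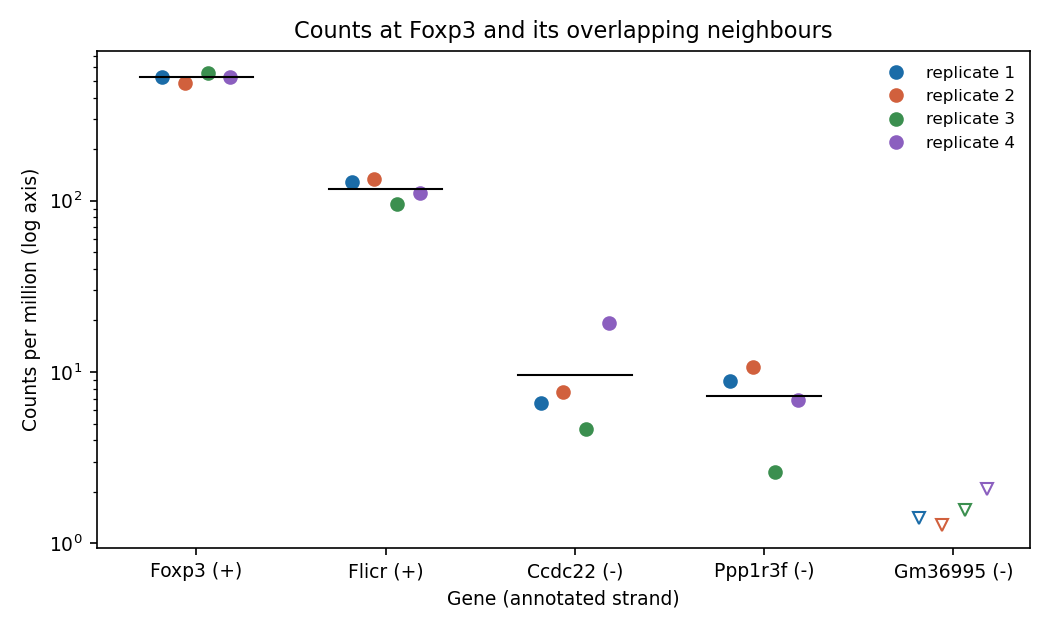
CPM (log axis) of 5 genes in each of the 4 libraries; filled points are single libraries, bars their means, and open triangles mark the 3-count limit where a gene had 0 counts. Foxp3 lies between 486 and 554, Flicr between Foxp3 and the 2 minus-strand genes Ccdc22 and Ppp1r3f, and Gm36995 at 0 throughout.

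The level of Foxp3 relative to Ccdc22 depended on which exon length divided the counts. Per kb of all exon bases, Foxp3 was 51.1-fold higher than Ccdc22 on summed counts (exact 95% interval 40.3 to 65.8). The log2 ratios of replicates 1 to 4 were 6.06, 5.73, 6.59 and 4.53, with a mean of 5.73 ± 0.87 (SD, n = 4). Every library had Foxp3 higher, and replicate 4, where Ccdc22 was highest, had the smallest ratio. Per kb of assignable exon, Foxp3 averaged 276 ± 47.1 counts and Ccdc22 36.7 ± 17.1, and the ratio on summed counts was 7.51 (5.92 to 9.67). That scale was added after the counts had been seen. The tables give 1 count per gene, so how many of the 4104 Foxp3 pairs lay in the 590 bases opposite Ccdc22 was not measured. The direction of these ratios holds for the strand as counted. If the strand setting did not match the library, the 4104 pairs would be from RNA of the Ccdc22 strand and the 69 from RNA of the Foxp3 strand.

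Such tail-to-tail pairs are common. Among protein-coding genes, 582 pairs shared at least 100 exon bases this way and 529 of them had at least 20 counts. The 590 bases of Foxp3 and Ccdc22 were more than 55.2% of these pairs share, and the median was 505. The absolute log2 ratio of mean counts plus 0.5 per kb of exon was 5.63 for Foxp3 and Ccdc22, larger than in 84.3% of pairs, whose median was 3.13. Per kb of assignable exon it was 2.87, larger than in 46.0% of 528 pairs, whose median was 3.07. Set against assignable length, the imbalance at this locus was near the middle of such pairs. This place is approximate, since the assignable bases of Ccdc22 lie in short stretches that read pairs can reach beyond.

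The other end of Foxp3 has a second overlap. Flicr (ENSMUSG00000039545.15, plus strand, 7573600 to 7581015) had 273, 313, 185 and 162 counts, or 117 ± 16.8 CPM and 49.8 ± 8.26 TPM (SD, n = 4). Foxp3 was 3.94-fold higher than Flicr per kb of exon (exact 95% interval 3.67 to 4.23), with a mean log2 ratio of 2.01 ± 0.28 over libraries. Flicr shares 310 bases head to head with Ppp1r3f on the minus strand. Ppp1r3f had 19, 25, 5 and 10 counts, or 7.26 ± 3.46 CPM. Flicr was 22.8-fold higher than Ppp1r3f per kb of exon (17.5 to 30.2) and 13.1-fold higher per kb of assignable exon (10.1 to 17.4). The bases that Flicr shares with Ppp1r3f lie outside Foxp3, upstream of its first base. In both opposite-strand pairs, Foxp3 with Ccdc22 and Flicr with Ppp1r3f, the plus-strand gene was the higher one in every library.

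Within 100 kb of the outer ends of Foxp3 and Ccdc22, 17 genes are annotated. The 7 plus-strand genes held 1480, 1540, 1339 and 984 counts and the 10 minus-strand genes 156, 200, 120 and 141, so the plus strand held 89.6% ± 1.93 (SD, n = 4). Foxp3 alone made up 69.0% ± 3.01. Elsewhere in the window the strands were not ordered the same way. Plp2, a membrane proteolipid on the minus strand, had 87, 118, 94 and 69 counts, and the planar polarity gene Prickle3 on the plus strand, with which it shares 246 bases, had 54, 54, 60 and 31. Gm14703 on the minus strand had 36, 38, 12 and 34 counts, and Syp, the synaptic vesicle protein synaptophysin, with which it shares 875 bases, had 8, 13, 9 and 3. Gpkow, a splicing factor, had 16 to 20 counts. Cacna1f, a retinal calcium channel, and Magix had 1 count each, and Gm14381, Gm14395, Gm14394, Gm23082 and Gm6079 had 0.

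The 4 Foxp3 values differed little in CPM. The coefficient of variation (CV) of its CPM was 5.33%, where Poisson counting alone gives 3.16% at its mean of 1026 counts. It was 2.68% without replicate 2, and 2.90% when the ribosomal locus CT010467.1 and mitochondrial genes were left out of the totals, both below counting alone. It was 6.35% with TMM and 7.41% with DESeq2 size factors. Among 589 genes with a mean of 500 to 2000 counts the median CV was 11.8%, and 21 of them, or 3.57%, had a lower CV than Foxp3. The highest was 115.5%, for Tsix at a mean of 1565.5 counts. The value for counting alone is taken from the mean of the inverse counts of the libraries. For Tsix it was 61.25%, raised by libraries with few counts, so it is not the counting spread at that mean. Whether the libraries differ in sex, which the labels give as not collected, was not tested. Of these 589 genes 553 overlap opposite-strand exons, with a median CV of 11.7%, and the 36 others had 13.7%. Flicr had a CV of 14.3% against 6.79% from counting alone. Ccdc22 had 69.2% against 26.2%, and Ppp1r3f 47.7% against 31.3%. These 3 genes were more uneven over the libraries than Foxp3, at lower counts.

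**Figure D4:**
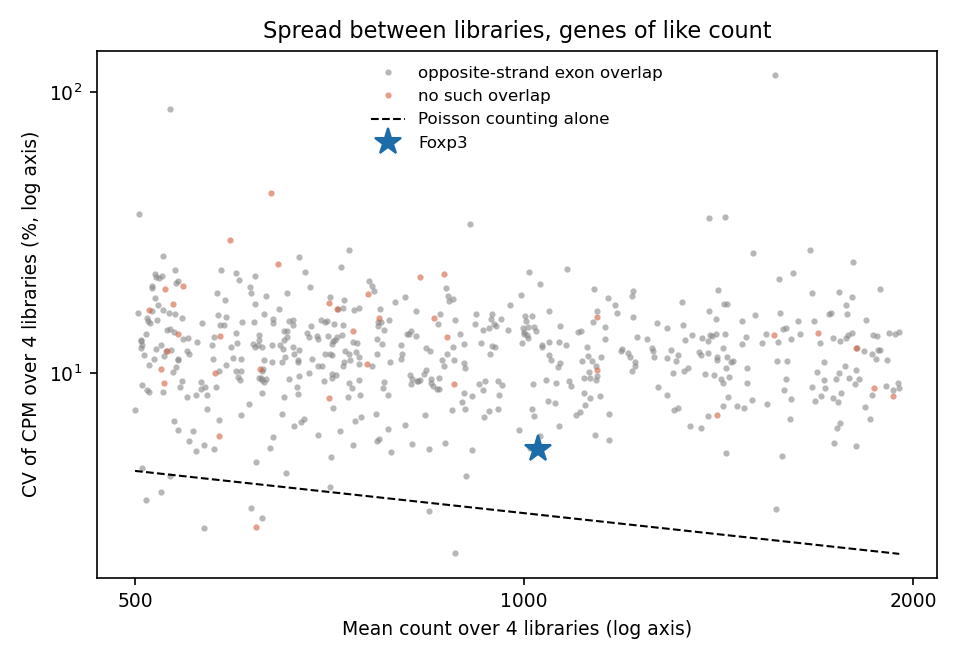
Coefficient of variation of CPM over the 4 libraries (percent, log axis) against mean count (log axis) for the 589 genes with 500 to 2000 mean counts, in grey with and in orange without opposite-strand exon overlap; the dashed line is Poisson counting alone and the star is Foxp3. Foxp3, at 5.33%, lies above the line and below most genes, whose median is 11.8%.

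The pattern of Foxp3 over the 4 libraries was compared with that of the 2622 genes that had at least 50 counts in every library, as the largest absolute difference in log2 CPM centred on each gene's mean. Its own range was narrow, between -0.11 in replicate 2 and 0.080 in replicate 3. The closest were Snx17, a sorting nexin of endosomes, at 0.0050 and Eef2kmt, a methyltransferase of a translation factor, at 0.0086. Arpc1b, a subunit of the actin-nucleating Arp2/3 complex, followed at 0.026, then the noncoding genes 1810008B01Rik at 0.028 and Gm16163 at 0.031. These distances make no allowance for counting error, and Snx17 had only 212 to 315 counts per library. Which genes are closest is therefore not settled, and no shared function is read from them. The median over all compared genes was 0.25, and Flicr, at 0.35, was farther than 71.5% of them. All 5 of the closest genes share exon bases with an opposite-strand gene, as do 78.7% of the genes compared. Ccdc22 and Gm36995 had too few counts for this measure.

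The Treg programme holds many known targets of Foxp3. Of 24 such genes, 7 reached a mean of 1 TPM on their annotated strand, where 34.0% of all protein-coding genes did so. Their median was 0.37 TPM, against 0.144 over all protein-coding genes, so the list as a whole was near the background. Of the 24, 10 had at most 3 counts over the 4 libraries and 5 of those had none. Among all 21764 protein-coding genes, 11177 had at most 3 counts and 9709 had none. All 24 were below Foxp3, as were 21548 of the 21764 protein-coding genes. Highest was the folate receptor homologue Izumo1r, with 45, 58, 49 and 48 counts and 17.0 ± 3.36 TPM (SD, n = 4), followed by the integrin Itgae at 5.73 ± 2.02. The orphan receptor Gpr83 had 2.55 ± 0.964 TPM and the costimulatory receptor Tnfrsf18 (GITR) 2.25 ± 1.26. None of these 4 came near the 199 TPM of Foxp3. Il2ra, the high-affinity interleukin 2 receptor chain, had 5, 2, 2 and 1 counts. The inhibitory receptor Ctla4 had 1, 2, 1 and 7, reaching 1.08 ± 1.37 TPM through replicate 4. Entpd1, Klrg1, Fgl2, Gzmb and Areg had 0 counts.

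Some members of this list had fewer counts than the gene opposite to them. Tnfrsf18 had 18 counts in all, against 4018 for Gm16008, an antisense gene that shares 414 bases with it. The cytokine subunit gene Ebi3 had 3 counts, against 660 for the antisense gene Gm16712. Of 20 genes in the lists used here that overlap an opposite-strand exon, the opposite gene with the largest overlap had more counts in 14, and over all protein-coding genes with such an overlap and a count in the pair it did so in 2498 of 4068, or 61.4%. Foxp3 is among those with more counts than the opposite gene, with 4104 against 69 for Ccdc22. What places Foxp3 and not Ccdc22 on the higher side was not tested.

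Transcription factors and cofactors known to act with Foxp3 or on its gene reached 1 TPM for 24 of 27 members, with a median of 3.70 TPM, beside 34.0% and a median of 0.144 TPM over all protein-coding genes. Stub1, a ubiquitin ligase that marks Foxp3 protein for degradation, had 1215, 1075, 998 and 778 counts and 470 ± 31.9 TPM (SD, n = 4), the only member above Foxp3. Kat5, the acetyltransferase Tip60, had 77.2 ± 16.9 TPM. Both overlap a protein-coding gene tail to tail, over 684 and 423 bases, and both had fewer counts than it, with 4066 for Stub1 against 11240 for Jmjd8 and 805 for Kat5 against 2482 for Rnaseh2c. Without opposite-strand exon overlap, Ets1, a factor that binds Foxp3 enhancers, had 26.6 ± 7.18 TPM and the lymphoid factor Ikzf1 19.9 ± 4.62. Of the Runx factors, partners of Foxp3 protein, Runx3 had 6.14 ± 1.86 TPM and Runx1 0.988 ± 0.509. Runx1 had 64 counts in all, against 2583 for the antisense gene Gm26626. Lowest were the DNA demethylase Tet2 at 0.338 TPM and the nuclear receptor Nr4a3 at 0.523. Of the other forkhead genes of the family, Foxp1 had 3.63 ± 0.922 TPM, Foxp4 2.18 ± 1.18 and Foxp2 0 counts.

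Of 20 Commander and WASH members, genes of the complexes that Ccdc22 works with, 16 reached 1 TPM, with a median of 1.62 TPM. Ccdc22 itself had 4.23 ± 2.93 TPM (SD, n = 4), with 3 of the 20 above it. Where Ccdc22 stood among them was not settled, since 8 were above it without replicate 4, at 2.80 TPM for Ccdc22, and 1 was above it when every gene's counts were divided by assignable bases, at 29.3 ± 20.1 for Ccdc22. Both settings were chosen after seeing the data. The highest members were Commd1, a Commander subunit also linked to copper handling, at 68.9 ± 7.90 TPM, the retriever subunit Vps35l at 17.7 ± 2.07 and Vps29, shared by retriever and retromer, at 10.8 ± 1.53. These 3 overlap opposite-strand exons over 203, 1072 and 340 bases. The WASH subunit Washc4, without such overlap, had 3.26 ± 1.11 TPM, and the lowest members were Commd2 at 0.310 and Commd7 at 0.550. All 6 members with opposite-strand exon overlap reached 1 TPM, with a median of 7.02, as did 10 of 14 without, with a median of 1.50. Over all protein-coding genes, 2778 of 4801 with and 4612 of 16963 without reached it, so genes with such overlap were more often counted throughout the tables.

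**Figure D5:**
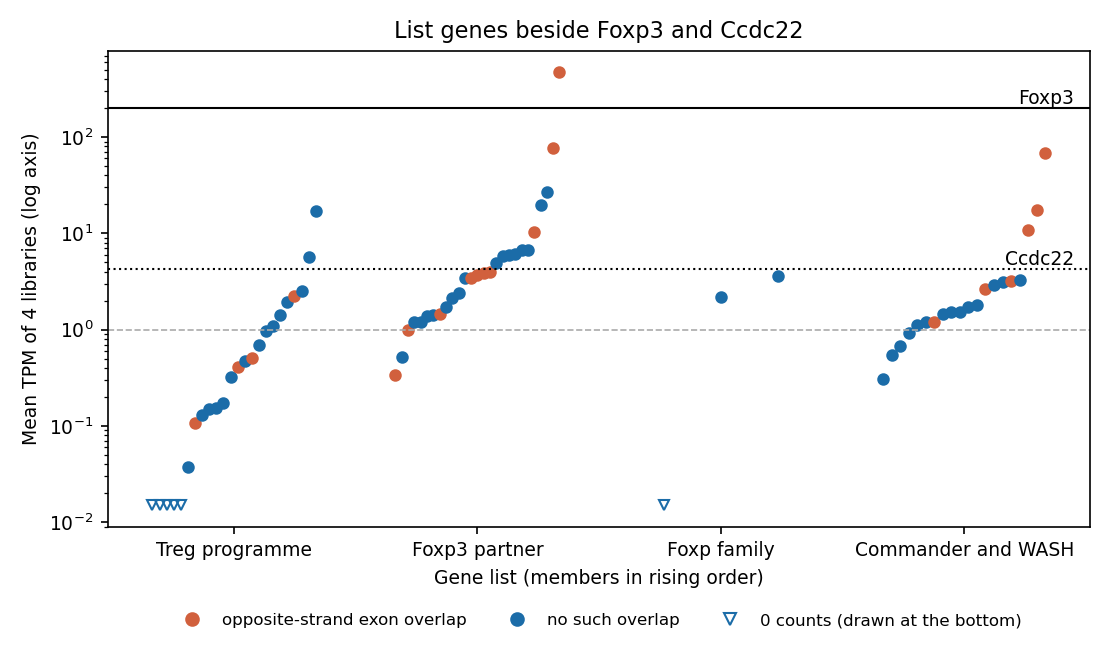
Mean TPM over 4 libraries (log axis) of each member of 4 gene lists, in rising order within a list, orange with and blue without opposite-strand exon overlap; triangles at the bottom had 0 counts, the dashed line is 1 TPM, the solid line is Foxp3 and the dotted line Ccdc22. Foxp3, at 199 TPM, lies above all 24 Treg programme genes and above 26 of 27 partners, as it does above 21548 of 21764 protein-coding genes. As drawn, 3 Commander and WASH genes lie above Ccdc22 (8 without replicate 4, and 1 by assignable bases).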

How the data were processed

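The 4 deposited tables, 1 per library, held the authors' raw counts per gene and exon lengths. Per the file headers, the authors used STAR alignments and the program featureCounts 1.4.6-p4 to count pairs with both ends aligned over GENCODE mouse release 13 exons on mm10, at strand setting 1. The sources used here do not give the library kit. Strand-specific signal tracks were not analysed here.

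Exons were merged per gene from the tables' coordinates, and shared bases were computed within and between strands. Symbols matched for 50376 of 50600 genes, and 224 kept their identifier. Gene types and coding sequence came from GENCODE mouse release 21. CPM used library totals, TPM all exon bases, and log2 ratios 0.5 added counts. No library was a copy: chi-square divided by its degrees of freedom was 6.29 to 24.8 over the 6 pairs. Ratio intervals are exact (Clopper-Pearson, 95%). The overlap and spread code was tested on simulated data.

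With 1 group no test was run. The members and lists were chosen with earlier results of these data known. Named were the members, genes within 100 kb or sharing their exons, the first 2, highest 4 and lowest 2 of each list, and the 5 genes closest to a member with at least 50 counts per library. Some genes the rule took are not described. Opposite-strand genes of list genes, markers and listed 0s were named after their values were seen. edgeR 4.0.16 (TMM) and DESeq2 1.42.0 gave alternative scalings only, in R 4.3.3. The rest used Python 3.11.15 with pandas 2.3.3, scipy 1.17.1 and matplotlib 3.10.9.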

Additional observations from a re-analysis of the deposited data

How the results depend on the processing

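Of 77 alternatives 58 kept the value, 19 moved it and 0 reversed it. Without CT010467.1 and mitochondrial genes, which shifts all genes by 0.18 log2, Foxp3 had 595 CPM and a CV of 2.90%, and leaving out 1 replicate gave a CV of 2.68% to 6.51%. The log2 ratio of Foxp3 over Ccdc22 was 2.96 per assignable base, chosen after seeing the data, and 6.13 without replicate 4. That of Gm36995 over Ccdc22, -5.78 per exon base with 0.5 added counts, is set by the added count because Gm36995 had 0. It was -8.06 with 0.1, -3.91 with 2, -5.04 without length and -4.63 per assignable base. The percentile of Foxp3 was 98.5 among all genes, 93.6 among those with at least 10 counts, 98.2 among protein-coding genes, and 95.2 to 95.5 with 1 replicate left out. At 2 TPM or more, 4 Treg programme and 8 Commander and WASH genes were detected, and 10 Commander and WASH genes reached 1 TPM without opposite-strand exon overlap. Without replicate 4, 6 Treg programme genes reached 1 TPM, and without replicate 3, 13 Commander and WASH genes. The 69 counts of Ccdc22 and the 355 assignable bases of Gm36995 limit what the depth can show. No paired analysis was possible because there is 1 group.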
